A study of Homo sapiens with 4 samples.

Results

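Collagens are trimers of chains wound into a helix, and each chain is the product of its own gene. The 44 genes described here are the protein-coding genes whose symbol is COL, a type number, A and a chain number, and all 44 were found among the 60617 gene entries of the deposited table. They were placed in 9 classes by the structures that their proteins form, and the classes are textbook knowledge, not a result of these data. RNA-seq libraries were made from the established human Ewing sarcoma cell line SKNMC after 24 h in 1 µM CBL0137 (2 libraries) or in the DMSO vehicle (2 libraries). CBL0137 is a curaxin, a DNA-binding small molecule that traps the histone chaperone FACT on chromatin. All 4 libraries come from this 1 tumour line, cultured in medium with serum. Ewing sarcoma is driven by fusions of EWSR1 to ETS family genes such as FLI1. Whether replicates were separate cultures is not stated, so p-values measure the spread between these libraries, which may be technical.

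Fibrillar collagens build the tension-bearing fibrils of connective tissue, and type IV collagen forms the mesh of basement membranes. FACITs, fibril-associated collagens with interrupted helices, sit on the surface of fibrils, and type VI collagen forms beaded filaments between cells and matrix. Transmembrane collagens stay anchored in the plasma membrane. Chains are hydroxylated and folded in the endoplasmic reticulum, trimmed by proteinases, cross-linked by lysyl oxidases, and bound by integrins and discoidin domain receptors.

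The libraries held 20767817 and 21061892 reads in genes with CBL0137 and 20086664 and 19625517 with DMSO. Replicates were distinct libraries, since their counts differed beyond counting noise (chi-square divided by its degrees of freedom 2.68 for CBL0137 and 2.95 for DMSO). The Ewing sarcoma markers CD99, NKX2-2, NR0B1, STEAP1, PRKCB and CCND1 all had reads, with a summed level of 1082 and 1174 CPM (reads of a gene scaled to library size) with CBL0137 and 2118 and 2107 CPM with DMSO, and 4 of the 6 fell. Of 8 fibroblast markers outside the collagens, 7 were tested, 1 rose (PDGFRA) and 2 fell (LUM and S100A4). Their summed level was 419 and 411 CPM with CBL0137 and 409 and 410.5 CPM with DMSO, and TCF21 was at 0 reads in all 4 libraries. Of 7 epithelial markers 5 rose and 1 (ESRP1) fell, with summed levels of 134 and 138 CPM with CBL0137 and 181 and 161 CPM with DMSO. Most of the DMSO sum was ESRP1, at 129 and 108 CPM, against 17.3 and 21.0 CPM with CBL0137. KRT18 had 99.3 and 97.3 CPM with CBL0137 and 45.8 and 46.6 CPM with DMSO. CDH1 had 12 and 10 reads with CBL0137 and 0 and 0 with DMSO. Endothelial markers (6 genes, of which 2 were tested and 1 rose) summed to 4.73 and 5.51 CPM with CBL0137 and 3.17 and 2.58 CPM with DMSO, where TEK was at 0 reads. Immune markers (6 genes, of which 2 were tested and 0 were called) summed to 108 and 125 CPM with CBL0137 and 163 and 163 CPM with DMSO, nearly all from PTPRC, and CD3E and CD68 had at most 1 read in any library. The part of any such cells in the results below was not tested. In a bulk library, fewer cells of a type and less RNA per cell cannot be told apart.

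SKNMC cells transcribed many collagen chain genes, and CBL0137 moved them in different directions. At least 1 chain gene rose in each of types I, II, IV, VI, VII, IX, XI, XII, XVIII, XXIV, XXVI and XXVII. Those of types II, XII, XXIV and XXVI had a mean below 5 CPM. The genes that fell were COL21A1, COL13A1, COL25A1, COL14A1, COL6A3 and COL5A2. A gene was called when its edgeR quasi-likelihood p, adjusted by Benjamini-Hochberg over all 17374 tested genes, was under 0.05 and its fold was above 1.5. Of the 44 genes 33 had enough reads to be tested, 16 rose, 6 fell and 11 were not called. Over all tested genes 18.2% were called higher and 15.1% lower. The median log2 fold change of the 33 tested chain genes was 0.67, beside 0.01 over all tested genes. Testing required about 10 reads in at least 2 libraries, and 5 of the 33 (COL2A1, COL4A3, COL5A3, COL9A1 and COL12A1) reached that in fewer than 2 DMSO libraries, so they passed through the treated libraries, where they are high. Of the 22 chain genes whose mean over the 4 libraries was at least 5 CPM, a limit set after the values were seen, 9 rose, 6 fell and 7 were not called, beside 12.5% higher and 16.7% lower among all tested genes above that limit. The other 11 tested chain genes were below 5 CPM, and 7 of them rose and 0 fell, beside 28.7% higher and 12.3% lower among all tested genes below it. Of those 7, COL2A1, COL4A3, COL9A1 and COL12A1 are among the genes that passed through the treated libraries.

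**Figure D1:**
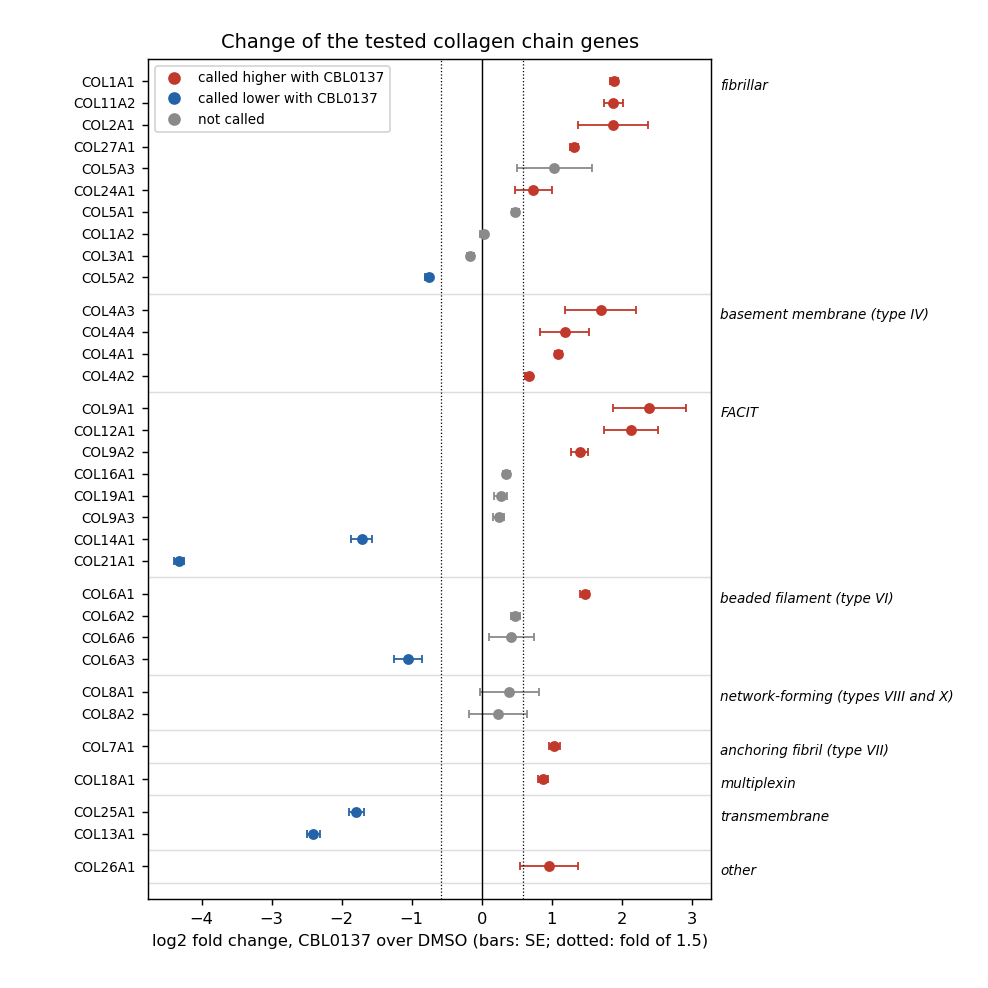
Log2 fold change (CBL0137 over DMSO) of the 33 tested collagen chain genes by class, with bars for the SE and dotted lines at a fold of 1.5. The 16 genes called higher are spread over 7 of the 9 classes, and COL21A1 stands farthest to the left at -4.32.

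Together the 44 genes took 91539 and 90895 reads with CBL0137, against 64080 and 62222 with DMSO. That was 0.441% (95% Wilson interval 0.438 to 0.444) and 0.432% (0.429 to 0.434) of gene reads with CBL0137, and 0.319% (0.317 to 0.321) and 0.317% (0.315 to 0.320) with DMSO. These intervals cover counting error only. The summed level was 4166 and 4105 CPM with CBL0137 and 3387 and 3343 CPM with DMSO, so the treated libraries were higher in both replicates. Without COL1A1 the sums were 3695 and 3664 CPM with CBL0137 and 3260.3 and 3224 CPM with DMSO. COL1A1 gave 11.3% and 10.8% of collagen reads with CBL0137 and 3.75% and 3.57% with DMSO, while COL21A1 gave 0.250% and 0.249% with CBL0137 and 6.24% and 6.05% with DMSO. By class, fibrillar chain genes summed to 2344 and 2327 CPM with CBL0137 and 1969 and 1944 CPM with DMSO. Type IV genes summed to 778 and 743 CPM with CBL0137 and 422 and 413 CPM with DMSO. FACIT genes summed to 619 and 626 CPM with CBL0137 and 694 and 685 CPM with DMSO, and transmembrane genes to 18.4 and 19.8 CPM with CBL0137 and 83.5 and 86.2 CPM with DMSO. The fibrillar and type IV sums were thus higher, and the FACIT and transmembrane sums lower, in both treated libraries. Single genes weighed on some of these sums. COL21A1 held 10.4 and 10.2 CPM with CBL0137 and 211 and 202 CPM with DMSO, a wider gap than that of the FACIT sum. The lower FACIT sum thus rests on COL21A1. COL1A1, at 471 and 441 CPM with CBL0137 and 127 and 119 CPM with DMSO, made most of the fibrillar gap. With 2 libraries a group, an exact permutation test of such a sum cannot give a p under 0.333, so none is given.

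**Figure D2:**
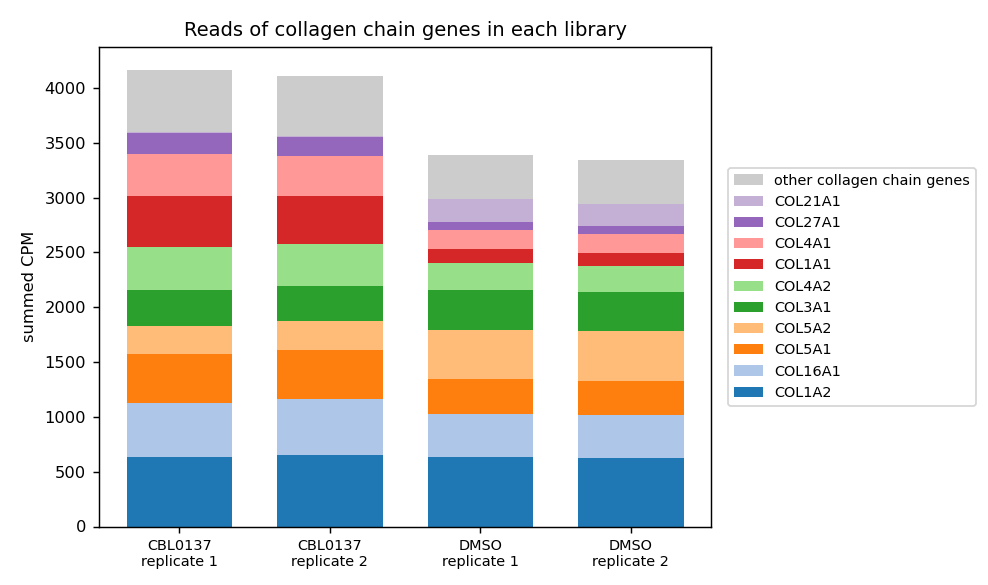
Summed CPM of collagen chain genes in each library, stacked by gene for the 10 genes of highest mean level. Both CBL0137 bars (4166 and 4105) are taller than both DMSO bars (3387 and 3343), with a taller COL1A1 segment and a COL21A1 segment too thin to see.

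Levels of different genes can be set side by side only per length of transcript. In reads scaled to annotated exon length as well as to library size (RPKM, computed from the counts), COL1A2 led in CBL0137 cells at 59.3 ± 1.51 (SD, n = 2), followed by COL16A1 at 54.5 ± 1.33, COL1A1 at 50.7 ± 2.33, COL3A1 at 47.7 ± 0.232 and COL5A1 at 39.6 ± 0.208. In DMSO cells the order was COL5A2 at 61.0 ± 0.351, COL1A2 at 58.0 ± 0.353, COL3A1 at 53.4 ± 0.535, COL16A1 at 42.7 ± 0.0918 and COL21A1 at 29.9 ± 0.957. The library values of neighbours in these orders did not overlap in either group. COL21A1 stood at place 18 with CBL0137, where its level was 1.49 ± 0.0221 RPKM, and at place 5 with DMSO. The deposited FPKM values put COL1A2 first and COL16A1 among the first 3 in both groups, and COL21A1 at place 18 with CBL0137 and 9 with DMSO. At the other end, 11 chain genes had fewer than 10 reads in every library and were not tested. COL4A5 and COL4A6 had 0 reads in all 4 libraries, which allows a level of up to 0.136 and 0.135 CPM with CBL0137 and 0.158 and 0.161 CPM with DMSO (3 reads, per library). The other 9 were COL10A1, COL11A1, COL15A1, COL17A1, COL20A1, COL22A1, COL23A1, COL28A1 and COL6A5, and changes in them were not detectable at this depth. COL28A1 had 9 and 4 reads with CBL0137 and 1 and 0 with DMSO, and COL15A1 had 0 and 1 with CBL0137 and 2 and 5 with DMSO.

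Among fibrillar chain genes, 5 of the 10 tested rose (COL1A1, COL11A2, COL2A1, COL27A1 and COL24A1), COL5A2 fell, and COL5A1, COL1A2, COL3A1 and COL5A3 did not pass. The median over the 10 was 0.89 on the log2 scale. Over all tested genes 18.2% were called higher and 15.1% lower. COL2A1 and COL5A3, both counted here, passed the filter through the treated libraries, where they are high. COL1A1 (ENSG00000108821, GRCh37 chr17:48261462-48278993, minus strand), which encodes the major chain of type I collagen of bone, skin and tendon, had 471 and 441 CPM in the CBL0137 libraries, against 127 and 119 CPM in the DMSO libraries. The groups lay far apart relative to their replicates, with 1.89 in log2 fold change (SE 0.06, edgeR adjusted p = 1.7e-28). Its partner COL1A2 (GRCh37 chr7:94024207-94060539, plus strand), the other chain of type I collagen, had 629 and 653 CPM with CBL0137 and 630.1 and 625 CPM with DMSO. The COL1A2 groups overlapped, and the log2 fold change was 0.03 (SE 0.05, adjusted p = 0.624). The ratio of COL1A1 to COL1A2, in RPKM, was 0.898 and 0.812 with CBL0137 and 0.242 and 0.229 with DMSO. With the deposited FPKM it was 0.695 and 0.611 with CBL0137 and 0.189 and 0.187 with DMSO. A ratio within a library does not depend on how libraries are scaled, and both versions put the treated ratios above both vehicle ratios. It can depend on a trend of fold change with GC content, which was 61.5% for COL1A1 and 41.7% for COL1A2. With the trend over GC content and gene span removed, COL1A1 was at 1.53 and COL1A2 at 0.19 on the log2 scale.

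Type V collagen, which co-assembles with type I and limits fibril diameter, showed a split between its chains. COL5A2 (GRCh37 chr2:189896624-190090038, minus strand) had 262 and 267 CPM with CBL0137 and 445 and 448 CPM with DMSO, and fell by 0.75 on the log2 scale (SE 0.05, edgeR adjusted p = 2.2e-16). COL5A1 (GRCh37 chr9:137533649-137736689, plus strand) had 443 and 440.0 CPM with CBL0137 and 320.2 and 313 CPM with DMSO. Both treated libraries were above both vehicle libraries for COL5A1, but its difference of 0.48 in log2 (SE 0.05, adjusted p = 8.9e-11) stayed under the fold limit. Among the alternatives run it was called with library size alone (0.64) and where the fold limit was dropped. GC content was 60.2% for COL5A1 and 48.3% for COL5A2. With the GC and span trend removed, COL5A1 was at 0.24 and COL5A2 at -0.69. The ratio of COL5A1 to COL5A2 was 1.11 and 1.08 with CBL0137 and 0.472 and 0.457 with DMSO in RPKM. COL5A3, a chain of low level here, had 0.865 and 0.903 CPM with CBL0137 and 0.211 and 0.645 CPM with DMSO (log2 fold change 1.04, SE 0.54, adjusted p = 0.092), and it was called only without DMSO replicate 2 (2.02). COL3A1, the chain of the type III collagen of vessels and skin and a chromosome 2 neighbour of COL5A2, had 321 and 324 CPM with CBL0137 and 363 and 358 CPM with DMSO. Its log2 fold change was -0.16 (SE 0.05, adjusted p = 0.0063), well under the fold limit, and it was -0.0019 with library size alone.

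COL27A1 (GRCh37 chr9:116917817-117074791, plus strand), a fibrillar chain gene known from cartilage, had 191 and 177 CPM with CBL0137 and 75.0 and 73.1 CPM with DMSO. It rose by 1.31 on the log2 scale (SE 0.06, edgeR adjusted p = 1.4e-22). COL11A2 (GRCh37 chr6:33130458-33160276, minus strand), a chain of the cartilage collagen type XI, had 19.0 and 19.5 CPM with CBL0137 and 5.71 and 4.73 CPM with DMSO. It rose by 1.88 (SE 0.14, adjusted p = 1.3e-15), whereas its partner chain gene COL11A1 had only 1 and 5 reads with CBL0137 and 5 and 4 with DMSO and was not tested. COL2A1, the chain of the main cartilage collagen, rested on 31 and 30 reads with CBL0137 and 10 and 4 with DMSO. The difference of 1.87 in log2 (SE 0.50, adjusted p = 0.0013) was 2.64 without DMSO replicate 1 and 1.36 without DMSO replicate 2, called both times. COL24A1, a fibrillar chain gene known from developing bone, had 3.23 and 3.70 CPM with CBL0137 and 2.06 and 2.10 CPM with DMSO. Its rise of 0.74 (SE 0.26, adjusted p = 0.015) was not called without CBL0137 replicate 2 (0.63) or with DESeq2 (0.73).

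Every type IV chain gene that could be tested rose, 4 of 4, with a median log2 fold change of 1.14. Over all tested genes 18.2% were called higher. COL4A3 reached the filter level in 0 DMSO libraries and passed through the treated libraries, where it is high, so its rise adds little to that count. COL4A3 and COL4A4 were below 5 CPM, where 28.7% of all tested genes were called higher. The 6 type IV genes lie in head-to-head pairs whose members are read in opposite directions from a common region, COL4A1 with COL4A2, COL4A3 with COL4A4, and COL4A5 with COL4A6. COL4A1 (GRCh37 chr13:110801310-110959504, minus strand) had 381 and 361 CPM with CBL0137 and 173 and 173 CPM with DMSO, 1.10 in log2 fold change (SE 0.05, edgeR adjusted p = 3.0e-21). COL4A2 (GRCh37 chr13:110958159-111165556, plus strand) had 393 and 379 CPM with CBL0137 and 247 and 238 CPM with DMSO, 0.67 in log2 fold change (SE 0.05, adjusted p = 1.2e-14). Their products form the common trimer of basement membranes, and all treated libraries lay above all vehicle libraries for both. Such a gap was seen for 40.7% of all tested genes. The annotated loci overlap at their heads but share no exonic base. The call of COL4A2 was lost when the trend of change over GC content and span was taken out (0.38), while COL4A1 kept its call at 0.97. The rise was not of equal size in the pair: the ratio of COL4A1 to COL4A2 was 1.28 and 1.25 with CBL0137 and 0.920 and 0.958 with DMSO in RPKM, and 0.850 and 0.821 with CBL0137 and 0.615 and 0.642 with DMSO in deposited FPKM.

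The stretch between the RefSeq starts of COL4A1 and COL4A2 is shown because both genes are read outward from it. It spans 126 bases, given on the plus strand (chr13:110307158-110307283, GRCh38.p14), with 80.2% G and C. Capitals mark a GC box (GGGCGG or its reverse complement CCGCCC) and a CCAAT box (CCAAT or ATTGG).
COL4A1 to COL4A2: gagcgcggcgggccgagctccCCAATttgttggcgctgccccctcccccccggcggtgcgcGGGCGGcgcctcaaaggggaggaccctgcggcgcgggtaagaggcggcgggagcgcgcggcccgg
It holds 1 GC box, 1 CCAAT box and 0 TATA boxes (TATAAA or TTTATA), searched on both strands. COL4A4 and COL4A3 start 418 bases apart in the same table.

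COL4A3 and COL4A4, whose products with that of COL4A5 make the basement membrane of the kidney glomerulus, stood at low levels. COL4A3 had 34 and 20 reads with CBL0137 and 8 and 6 with DMSO, and COL4A4 had 58 and 44 reads with CBL0137 and 17 and 21 with DMSO. Both rose, by 1.70 (SE 0.51, edgeR adjusted p = 0.004) and by 1.19 (SE 0.35, adjusted p = 0.0034) on the log2 scale. Both calls were lost without CBL0137 replicate 1 (COL4A3 1.26, COL4A4 0.97), and that of COL4A3 was also lost without DMSO replicate 2 (1.51). The ratio of COL4A3 to COL4A4 was 0.564 and 0.437 with CBL0137 and 0.453 and 0.275 with DMSO in RPKM, so the groups overlapped. COL4A3 shares 838 exonic bases with MFF-DT on the opposite strand, a long non-coding RNA gene with 81 and 83 reads with CBL0137 and 36 and 15 with DMSO. The sources used here do not give the strand setting of the counting, so reads of that overlap cannot be assigned with certainty.

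FACIT genes went both ways, with 3 of 8 tested higher, 2 lower and 3 not called, and a median of 0.31 on the log2 scale. Over all tested genes 18.2% were called higher and 15.1% lower. Of the 3 that rose, COL9A1 and COL12A1 passed the filter through the treated libraries, where they are high, so COL9A2 is the only rise free of that limit. COL21A1 (ENSG00000124749, GRCh37 chr6:55921388-56258892, minus strand), a FACIT gene known from the vessel wall, had 10.4 and 10.2 CPM with CBL0137 and 211 and 202 CPM with DMSO. It fell by 4.32 on the log2 scale (SE 0.07, edgeR adjusted p = 9.3e-37), and the difference was -3.13 on the log2(FPKM + 1) scale. COL14A1, whose product binds collagen fibrils in tendon and skin, had 3.82 and 4.65 CPM with CBL0137 and 13.9 and 14.0 CPM with DMSO. It fell by 1.72 (SE 0.16, adjusted p = 1.1e-12). In deposited FPKM the gap was wider, at 0.0869 and 0.102 with CBL0137 and 1.19 and 1.34 with DMSO. COL12A1, a close relative of COL14A1, was low and moved the other way, with 57 and 63 reads with CBL0137 and 7 and 16 with DMSO. It rose by 2.14 (SE 0.38, adjusted p = 6.3e-06), and by 2.84 without DMSO replicate 2 and 1.64 without DMSO replicate 1.

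Type IX collagen decorates cartilage fibrils and is built from COL9A1, COL9A2 and COL9A3 chains. COL9A2 (GRCh37 chr1:40766161-40783485, minus strand) had 24.0 and 19.7 CPM with CBL0137 and 8.35 and 8.17 CPM with DMSO, a rise of 1.40 on the log2 scale (SE 0.12, edgeR adjusted p = 4.1e-13). COL9A1 rested on 32 and 31 reads with CBL0137 and 5 and 5 with DMSO and rose by 2.40 (SE 0.52, adjusted p = 1.1e-04). COL9A3, the highest of the set per length, had 49.6 and 46.0 CPM with CBL0137 and 41.3 and 39.4 CPM with DMSO. Its log2 fold change was 0.24 (SE 0.07, adjusted p = 0.0045) and turned to -0.26 with the GC and span trend removed. The ratio of COL9A2 to COL9A3 was 0.555 and 0.493 with CBL0137 and 0.232 and 0.238 with DMSO in RPKM, so these chains did not move in proportion. That of COL9A1 to COL9A3 was 0.0138 and 0.0143 with CBL0137 and 0.00300 and 0.00319 with DMSO. COL16A1, a widely expressed FACIT gene and 1 of the 4 highest chain genes per length in both groups, had 496 and 513 CPM with CBL0137 and 395 and 394 CPM with DMSO. The difference of 0.35 in log2 (SE 0.05, edgeR adjusted p = 1.2e-07) was under the fold limit, and it was 0.01 with the GC and span trend removed. That of COL19A1 (0.27, SE 0.09) was also under the limit, but COL19A1 was called higher with that trend removed (0.61).

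Type VI collagen is assembled from COL6A1, COL6A2 and a large chain such as COL6A3, and its chain genes diverged. COL6A1 (GRCh37 chr21:47401684-47424964, plus strand) had 135 and 125 CPM with CBL0137 and 50.2 and 43.7 CPM with DMSO, 1.47 in log2 fold change (SE 0.07, edgeR adjusted p = 2.5e-22). COL6A2 (GRCh37 chr21:47518026-47552762, plus strand), its neighbour on chromosome 21, had 129 and 120.4 CPM with CBL0137 and 88.0 and 90.6 CPM with DMSO. The groups did not overlap for either gene, but COL6A2 at 0.48 (SE 0.06, adjusted p = 1.6e-09) was under the fold limit. Both treated libraries lay above both vehicle libraries for 40.7% of all tested genes. COL6A3 had 2.69 and 4.29 CPM with CBL0137 and 7.72 and 6.77 CPM with DMSO, and fell by 1.05 (SE 0.20, adjusted p = 2.3e-05). The ratio of COL6A1 to COL6A2 was 1.01 and 1.00 with CBL0137 and 0.550 and 0.465 with DMSO in RPKM, and that of COL6A3 to COL6A1 was 0.00512 and 0.00881 with CBL0137 and 0.0396 and 0.0399 with DMSO. COL6A6 was not called (0.42, SE 0.32).

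**Figure D3:**
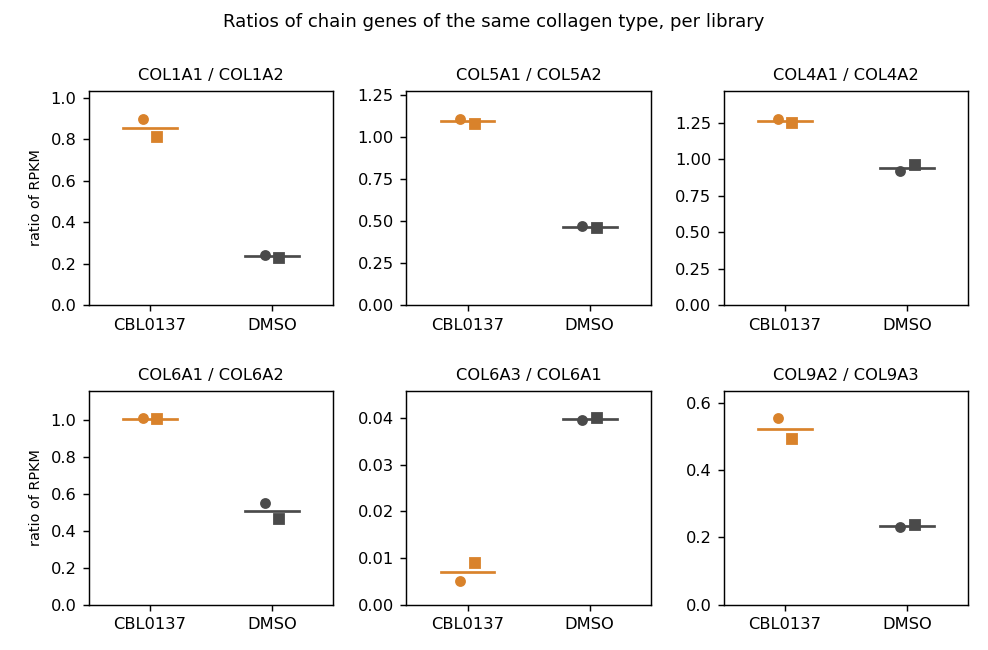
Ratio of RPKM between chain genes of the same collagen type in each library (circles replicate 1, squares replicate 2, lines the mean of 2), on axes that start at 0. The CBL0137 ratios lie above both DMSO ratios for COL1A1/COL1A2, COL5A1/COL5A2, COL4A1/COL4A2, COL6A1/COL6A2 and COL9A2/COL9A3, and below them for COL6A3/COL6A1. The low-count pair COL4A3/COL4A4, whose groups overlap, and COL9A1/COL9A3 are not drawn. The GC and span trend was not removed from these ratios.

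Both tested genes of transmembrane collagens fell, beside 15.1% called lower over all tested genes. COL13A1 (GRCh37 chr10:71561636-71724031, plus strand), whose product is found at the neuromuscular junction, had 9.69 and 10.8 CPM with CBL0137 and 53.5 and 55.4 CPM with DMSO, and fell by 2.41 on the log2 scale (SE 0.09, edgeR adjusted p = 1.5e-24). COL25A1 (GRCh37 chr4:109729881-110223908, minus strand), which is expressed by neurons and muscle, had 8.60 and 8.94 CPM with CBL0137 and 30.0 and 30.8 CPM with DMSO, and fell by 1.79 (SE 0.11, adjusted p = 3.5e-18). All treated libraries lay below all vehicle libraries for both, as they did for 39.2% of all tested genes. In deposited FPKM, COL13A1 was at 0.405 and 0.410 with CBL0137 and 0.741 and 0.782 with DMSO, a smaller gap than in the counts, and COL25A1 at 0.155 and 0.235 with CBL0137 and 0.868 and 0.760 with DMSO. The transmembrane genes COL17A1 and COL23A1 had at most 1 read in any library.

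COL7A1 and COL18A1, each the one tested gene of its class, rose. COL7A1 (GRCh37 chr3:48601506-48632762, minus strand), whose product makes the anchoring fibrils under epithelia, had 62.7 and 59.5 CPM with CBL0137 and 29.6 and 29.8 CPM with DMSO, 1.04 in log2 fold change (SE 0.07, edgeR adjusted p = 9.3e-16). COL18A1 (GRCh37 chr21:46825080-46933634, plus strand), a basement membrane proteoglycan gene whose product yields the fragment endostatin, had 70.0 and 72.4 CPM with CBL0137 and 38.6 and 38.7 CPM with DMSO, 0.88 in log2 fold change (SE 0.07, adjusted p = 1.4e-14). COL18A1 shares 1563 exonic bases with SLC19A1 on the opposite strand, which had 845 and 976 reads with CBL0137 and 1230 and 1176 with DMSO. Its call was lost with the GC and span trend removed (0.39). COL26A1 had 28 and 41 reads with CBL0137 and 14 and 16 with DMSO, and its rise of 0.96 (SE 0.42, adjusted p = 0.043) did not hold in 9 of the 14 alternatives that tested it. It was lost without CBL0137 replicate 2 (0.66), DMSO replicate 1 (0.84) or DMSO replicate 2 (1.06), with the replicate block (0.95), DESeq2 (0.96) or no filter on low counts (0.94), and once the GC and span trend was taken out (0.60), besides a fold above 2 and unfiltered FPKM. COL8A1 and COL8A2, chain genes of the network of the cornea and of vessels, had low levels. COL8A1 had 1.64 and 1.17 CPM with CBL0137 and 0.634 and 1.50 CPM with DMSO, and COL8A2 had 1.59 and 1.04 CPM with CBL0137 and 1.43 and 0.806 CPM with DMSO. Their groups overlapped and neither was called.

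**Figure D4:**
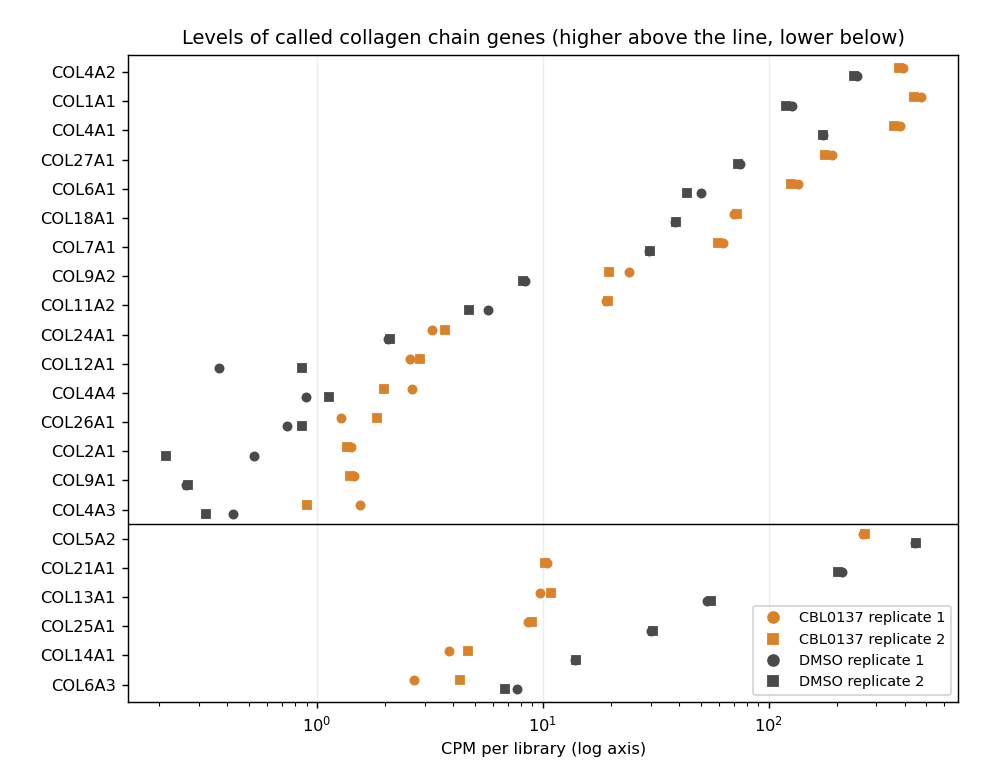
CPM of the 22 called collagen chain genes in each library on a log axis, with the 16 that rose above the line and the 6 that fell below it. The highest point is 471 CPM (COL1A1, CBL0137 replicate 1) and the lowest 0.215 CPM (COL2A1, DMSO replicate 2), and the treated and vehicle points do not overlap for any of the 22 genes.

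The separation in the plot of the 22 genes is in part what a call requires: over all tested genes both treated libraries lay above both vehicle libraries for 40.7% and below them for 39.2%. GC content moved with the direction. The median GC content of the longest transcript was 61.7% for the 16 genes that rose, 46.5% for the 6 that fell, 60.2% for the 11 not called and 47.8% for all tested genes. Among the 3451 tested genes richest in GC (57.5% or more, a group set after the values were seen), 32.1% were called higher and 8.43% lower. That group held 16 chain genes, of which 10 rose and 0 fell. With the trend of fold change with GC content and gene span removed, 14 chain genes rose and 6 fell, beside 16.4% higher and 15.8% lower over all tested genes. COL4A2 (0.38), COL18A1 (0.39) and COL26A1 (0.60) were then no longer called, and COL19A1 (0.61) was. COL1A1 then stood at 1.53, COL6A1 at 1.07, COL27A1 at 1.01, COL7A1 at 0.62 and COL21A1 at -4.05, all still called.

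Promoters were available from RefSeq (GRCh38.p14) for 32 of the chain genes, at 44 starts, each covering 250 bases before and 50 after the start. They are shown for the pairs of genes with 1 listed start and at least 5 CPM that rose most (COL9A2 and COL27A1, type IV aside) and fell most (COL13A1 and COL25A1), to set these opposite responses beside their sequence. Capitals mark GC, CCAAT and TATA boxes on either strand, and overlapping matches were all counted. The positions are chr1:40317237-40317536 (minus strand) for COL9A2, chr9:114155287-114155586 (plus) for COL27A1, chr10:69801656-69801955 (plus) for COL13A1 and chr4:109302609-109302908 (minus) for COL25A1.
COL9A2: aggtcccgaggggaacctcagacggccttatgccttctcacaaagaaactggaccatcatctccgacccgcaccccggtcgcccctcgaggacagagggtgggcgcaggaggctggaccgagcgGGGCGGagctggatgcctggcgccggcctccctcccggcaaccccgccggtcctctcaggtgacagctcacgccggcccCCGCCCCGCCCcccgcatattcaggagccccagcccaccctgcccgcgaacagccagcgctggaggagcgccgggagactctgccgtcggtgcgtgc
COL27A1: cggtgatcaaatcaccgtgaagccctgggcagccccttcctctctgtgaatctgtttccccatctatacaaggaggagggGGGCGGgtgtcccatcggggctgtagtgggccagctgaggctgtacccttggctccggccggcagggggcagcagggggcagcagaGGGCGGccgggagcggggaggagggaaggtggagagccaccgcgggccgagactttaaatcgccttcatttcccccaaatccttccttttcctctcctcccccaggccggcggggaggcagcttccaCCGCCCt
COL13A1: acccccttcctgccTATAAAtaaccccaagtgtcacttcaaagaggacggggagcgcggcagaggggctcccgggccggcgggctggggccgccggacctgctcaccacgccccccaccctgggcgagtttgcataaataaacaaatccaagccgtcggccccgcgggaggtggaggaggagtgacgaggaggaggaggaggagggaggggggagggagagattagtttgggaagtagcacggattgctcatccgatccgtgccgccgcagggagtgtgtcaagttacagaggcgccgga
COL25A1: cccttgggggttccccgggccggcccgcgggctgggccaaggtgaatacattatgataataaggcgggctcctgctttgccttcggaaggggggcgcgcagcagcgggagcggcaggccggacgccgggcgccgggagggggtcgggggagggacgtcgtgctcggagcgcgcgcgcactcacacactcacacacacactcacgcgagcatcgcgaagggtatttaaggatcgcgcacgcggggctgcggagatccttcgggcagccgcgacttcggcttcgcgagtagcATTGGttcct
COL9A2 and COL27A1 hold 3 GC boxes each, and COL13A1 and COL25A1 hold 0. Box counts by direction are not given for the other starts, so these 4 promoters do not stand for the rest. Their GC content was 71.7% (COL9A2), 65.7% (COL27A1), 64% (COL13A1) and 68.3% (COL25A1). Median promoter GC was 65.7% at 19 starts of 13 chain genes that rose and 58% at 6 starts of 4 that fell. These are not all the genes called, and a gene with several starts counts at each. The median was 73.8% at 8 starts of 7 chain genes not called, 43.7% at 11 starts of 8 not tested and 58.7% for all promoters. COL13A1 holds 1 TATA box and COL25A1 1 CCAAT box. A GC box was found at 24 of the 44 collagen starts (54.5%) and at 45.0% of all 35116 RefSeq starts, a CCAAT box at 31.8% and 34.6%, and a TATA box at 18.2% and 11.5%. These are matches of letters and say nothing about binding.

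Genes that act on collagen were gathered in a list of 54, of which 47 were tested, 9 rose, 7 fell and 31 did not pass, and their median was 0.08 on the log2 scale. Read against 18.2% called higher and 15.1% lower over all genes, the share of calls in this list was near the background. Of the 9 that rose, all but PCOLCE and DDR1 had a mean under 5 CPM, where 28.7% of all tested genes were called higher. FKBP10 and TLL2, both among the 9, reached the filter level in fewer than 2 DMSO libraries and so passed through the treated libraries, where they are high. Among the enzymes that hydroxylate and glycosylate chains, 0 of 13 rose and 1 fell: P4HA2, a prolyl 4-hydroxylase subunit gene, had 4.37 and 6.68 CPM with CBL0137 and 12.8 and 13.9 CPM with DMSO (-1.27 on the log2 scale, SE 0.16, edgeR adjusted p = 4.5e-09). The other 12 tested genes of this role were not called. In folding and export 2 of 11 rose and 1 fell. FKBP10, a collagen chaperone gene, had 31 and 43 reads with CBL0137 and 10 and 1 with DMSO (log2 fold change 2.49, SE 0.54, adjusted p = 1.1e-04), and CREB3L1, whose product activates type I collagen genes, had 5.55 and 5.96 CPM with CBL0137 and 3.38 and 3.49 CPM with DMSO (0.74, SE 0.21), a call lost with the GC and span trend removed (0.44). FKBP10 was at 4.80 without DMSO replicate 1 and 1.64 without DMSO replicate 2, called both times. MIA2, of the machinery that exports bulky cargo, had 22.7 and 22.9 CPM with CBL0137 and 42.9 and 41.6 CPM with DMSO (-0.89, SE 0.08), and the collagen-specific chaperone gene SERPINH1 was at 0.35 (SE 0.05), under the fold limit.

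In propeptide processing 3 of 7 rose and 1 fell. For this role and those below, the share over all tested genes was 18.2% higher and 15.1% lower. TLL2, PCOLCE2, LOXL2, LOXL3 and MMP2 had means under 5 CPM, where 28.7% of all tested genes were called higher. PCOLCE, which encodes an enhancer of procollagen cleavage, had 47.2 and 49.9 CPM with CBL0137 and 27.4 and 23.5 CPM with DMSO (0.93, SE 0.08, edgeR adjusted p = 6.1e-13). TLL2, of the family of procollagen C-proteinases, rose at a low level, with 22 and 21 reads with CBL0137 and 3 and 6 with DMSO. PCOLCE2, a relative of PCOLCE, rose by 0.96 (SE 0.37), and the N-proteinase gene ADAMTS14 fell, with 5.60 and 5.83 CPM with CBL0137 and 9.20 and 11.1 CPM with DMSO (-0.83, SE 0.16). The call of TLL2 was lost without DMSO replicate 1 (1.56). That of PCOLCE2 was lost without CBL0137 replicate 1 (0.87), CBL0137 replicate 2 (1.04) or DMSO replicate 1 (0.75), and that of PCOLCE with the GC and span trend removed (0.50). In crosslinking 2 of 4 rose and 1 fell. LOX, which encodes lysyl oxidase itself, had 46.6 and 41.5 CPM with CBL0137 and 85.7 and 92.4 CPM with DMSO (-1.02, SE 0.07, adjusted p = 1.3e-16). Of its relatives, LOXL2 and LOXL3 moved the other way. LOXL2 had 5.01 and 4.16 CPM with CBL0137 and 2.06 and 2.15 CPM with DMSO (1.12, SE 0.24). LOXL3 had 2.87 and 2.08 CPM with CBL0137 and 1.53 and 1.24 CPM with DMSO (0.83, SE 0.32). LOXL1 was not called (0.30, SE 0.51), and LOXL4 was not tested. The call of LOXL3 was lost without CBL0137 replicate 1 (0.58) or DMSO replicate 2 (0.67), and with the trend removed (0.67). In degradation and uptake 1 of 5 rose and 1 fell. The gelatinase gene MMP2 had 5.96 and 6.46 CPM with CBL0137 and 2.75 and 2.63 CPM with DMSO (1.20, SE 0.21), and FAP, a gelatin-cleaving surface protease gene, had 6.92 and 7.27 CPM with CBL0137 and 11.5 and 12.2 CPM with DMSO (-0.74, SE 0.14). FAP lost its call with library size alone (-0.58) or with that trend removed (-0.54).

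The 2 discoidin domain receptors, tyrosine kinases that bind collagen, moved in opposite directions. DDR1 had 206 and 190.2 CPM with CBL0137 and 123 and 123 CPM with DMSO, 0.69 in log2 fold change (SE 0.06, edgeR adjusted p = 2.6e-14). DDR2, the receptor for fibrillar collagens, had 545 and 603 CPM with CBL0137 and 1117 and 1169 CPM with DMSO, -0.99 in log2 fold change (SE 0.06, adjusted p = 2.7e-19). The groups did not overlap for either gene, as for 40.7% of all tested genes upward and 39.2% downward. Among collagen-binding integrin subunit genes ITGA11 fell, with 2.14 and 3.43 CPM with CBL0137 and 4.60 and 4.73 CPM with DMSO (-0.74, SE 0.24), and the other 4 were not called. The call of ITGA11 was lost without CBL0137 replicate 1 (-0.44). The call of DDR1 was lost with the GC and span trend removed (0.35).

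**Figure D5:**
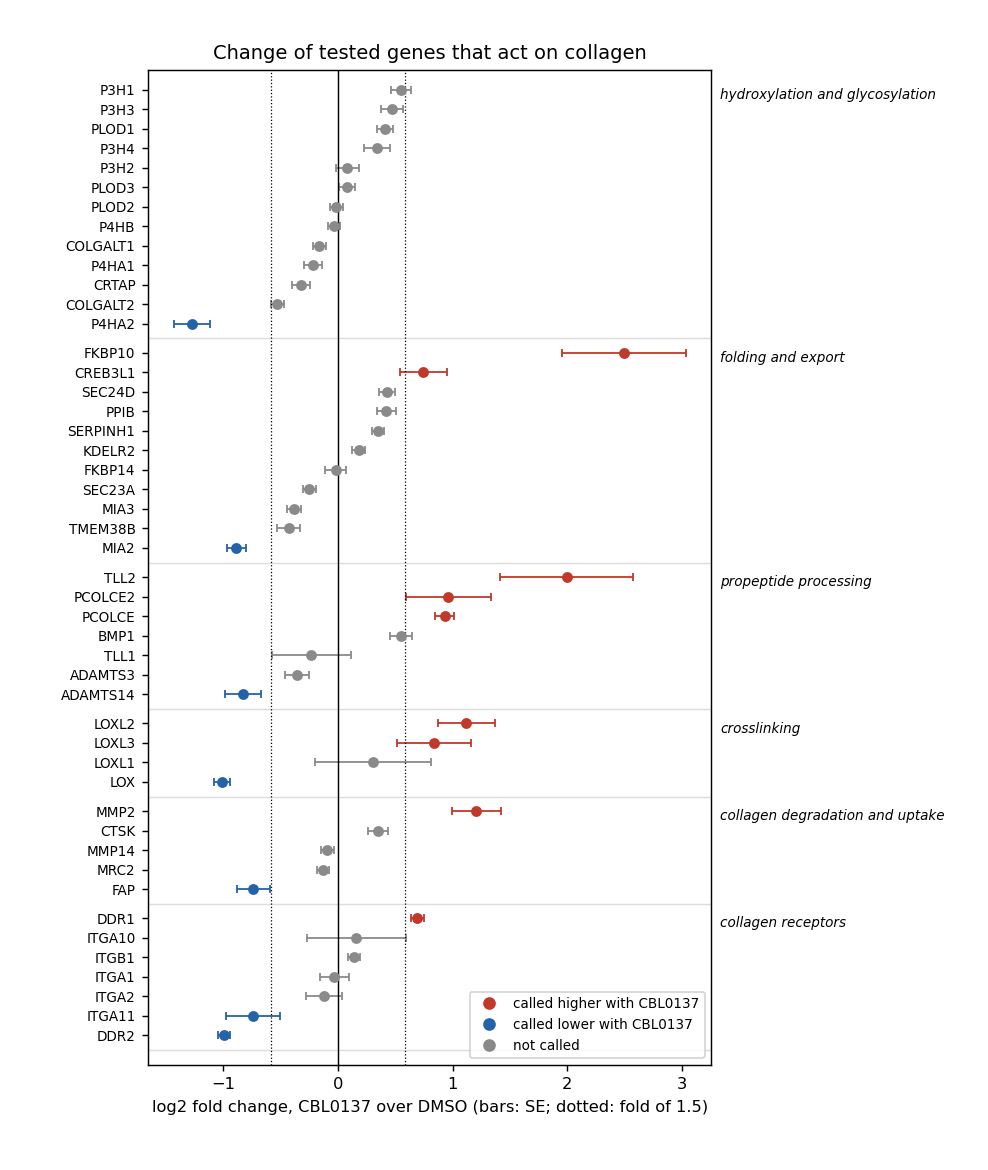
Log2 fold change (CBL0137 over DMSO) of the 47 tested genes that modify, fold, process, crosslink, degrade or bind collagen, with bars for the SE and dotted lines at a fold of 1.5. The hydroxylases and glycosyltransferases sit between the dotted lines except P4HA2, and DDR1 and DDR2 lie on opposite sides of 0.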

How the data were processed

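RNA-seq of total RNA from SKNMC cells gave 4 libraries, with groups and replicate numbers taken from the sample titles. The authors trimmed reads with Trim Galore, aligned them to hg19 with HISAT2 and made raw counts per gene with HTSeq 0.11.1, per the series' design text and the submitters' processing notes, which also name mm10 without a role. The authors deposited FPKM values beside the counts, computed from reads, gene length and depth; the sources used here do not name their tool. They are not a rescaling of the counts (5103 genes with 0 counts had FPKM above 0), so counts were tested and FPKM was an alternative on log2(FPKM + 1), which understates changes of low genes. The 6 entries that name no gene stayed out; reads in no gene were 10.3% and 10.2% with CBL0137 and 8.52% and 8.82% with DMSO, and ambiguous reads 8.75% and 8.78% with CBL0137 and 9.34% and 9.27% with DMSO.

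Counts were tested in R 4.3.3 with edgeR 4.0.16 (quasi-likelihood F test, TMM factors, filterByExpr); CPM uses TMM effective library sizes and is a share of sequenced RNA. SE is the absolute log2 fold change over the square root of F. Positions, types, exon lengths and transcript GC came from GENCODE release 44 on GRCh37 (the build of hg19), and names from the supplied list. DESeq2 1.42.0, limma 3.58.1 and mgcv 1.9.3 served the alternatives, and the fits were tested on simulated data. Genes given with CPM or reads in every library by rule were the called chain genes and the 2 of highest mean CPM of each class, and, of genes that act on collagen, the 3 called with the smallest p of each role; the other genes of that list were named after their values were seen. Of the 22 called chain genes 14 overlap another annotated gene, 5 of them in exons on the opposite strand. The members and lists were chosen with earlier results of these data known. The numbers 1 and 2 did not mark shared samples in the labels.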

Additional observations from a re-analysis of the deposited data

How the results depend on the processing

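None of the 22 called chain genes changed sign under any of the 16 alternatives, and 8 were called under all that tested them (COL1A1, COL27A1, COL4A1, COL6A1, COL7A1, COL9A2, COL14A1 and COL21A1). The alternatives on counts gave 12 to 21 chain genes higher and 5 to 7 lower, against 16 and 6. Leaving out 1 library gave 14 to 15 higher and 6 lower, with 2699 to 2974 higher and 2418 to 2655 lower over all genes, and 7 to 10 higher and 6 to 8 lower in the list of genes that act on collagen. A lone library in a group was assumed to vary like the others. FPKM, which left 10 of the 22 genes untested under its filter, gave 9 chain genes higher and 3 lower as log2(FPKM + 1) or log2(FPKM + 0.1), and 7 and 3 with no filter. Over all genes log2(FPKM + 1) gave 1918 higher and 1518 lower, and 1215 and 1057 with no filter. Dropping the fold limit gave 5347 higher and 5375 lower, and requiring a fold above 2 gave 1988 and 1218. The list of genes that act on collagen (9 higher, 7 lower) had 20 and 16 without the fold limit, 4 and 2 at a fold above 2, 4 higher with log2(FPKM + 1), 5 with log2(FPKM + 0.1), 1 higher and 3 lower with FPKM and no filter, and 5 higher with the GC and span trend removed. Of the 16 called genes of that list 0 changed sign, and 4 lost their call without 1 of the libraries (TLL2, PCOLCE2, LOXL3 and ITGA11). Library size alone moved the median of all genes by 0.16 on the log2 scale, and gave 4138 higher and 1877 lower, 68.8% higher against 54.6%. It gave 18 chain genes higher and 6 lower. With the GC and span trend removed 2855 genes were higher and 2750 lower over all genes (50.9% higher).

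Signs turned only in genes not called: COL1A2 (-0.0012 without CBL0137 replicate 2, 0.0545 without CBL0137 replicate 1), COL8A1 (-0.11 without DMSO replicate 1, 1.13 without DMSO replicate 2), COL8A2 (-0.11 without CBL0137 replicate 1, -0.13 without DMSO replicate 2, 0.69 without DMSO replicate 1, -0.10 with the GC and span trend removed) and COL9A3 (-0.26 with that trend removed). The causes were not tested. The correlation of same-numbered deviations was 0.02, so no shared deviation was seen. With 1 difference per group this cannot show whether libraries with the same number were made together. The replicate block gave 15 chain genes higher and 6 lower, 3129 and 2612 over all genes, and 9 and 7 in the list that acts on collagen. Genes under about 1 CPM rest on few reads, which limits their precision.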
